A study of Homo sapiens with 16 samples.

Results

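The genes for translation initiation factors (eIFs) were examined in H1299, a human line of non-small cell lung cancer, after knockdown of YEATS2, an acetyl-lysine reader of the ATAC histone acetyltransferase complex. The genes were all rows of the deposited count table whose symbol starts with EIF and a digit, without the Argonaute genes once named EIF2C and the eIF2 kinase genes (EIF2AK). This rule found 49 of the 12676 rows, of which 46 were protein-coding, 2 were pseudogenes (EIF2S2P4 and EIF3FP3) and 1 was a long non-coding RNA (EIF3J-AS1). Of the symbols assigned to the factor complexes, 6 had no row in the table, among them EIF3CL, EIF4E3 and EIF4EBP3, and were not analysed here.

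The RNA-seq part of the study compared 2 libraries of cells carrying a control shRNA (shNT) with 2 libraries of cells carrying an shRNA against YEATS2 (shYEATS2). Both groups had been exposed for 48 h to lentivirus with polybrene at 8 µg/ml and selected with puromycin at 2 µg/ml for 4 to 7 days according to the labels, while the study's methods give a shorter selection. The labels do not say which YEATS2 shRNA these libraries carried, and the study's text names shY2-1 for its duplicate RNA-seq. The listed genes received 34718921 to 39417787 reads per library. Values set side by side as "under shNT" and "under shYEATS2" are of replicates 1 and 2 of each group. They are TMM-scaled read counts (counts set to a common library size by edgeR), n = 2 libraries per group throughout, and a gene was called higher or lower at a false discovery rate (FDR) under 0.01 in edgeR's quasi-likelihood test over all 12676 genes. The study describes the duplicates as independent biological replicates, which the labels neither state nor contradict, and the p-values measure the spread between these libraries. In bulk RNA, fewer cells of a type and less RNA per cell cannot be told apart.

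Initiation factors bring the ribosome to the start codon of an mRNA. The eIF4E, eIF4G and eIF4A proteins recognise the cap and open the mRNA, eIF2 delivers the initiator methionyl-tRNA and is recharged with GTP by eIF2B, and the large eIF3 complex organises the small ribosomal subunit. The genes for several of these factors belong to the TOP mRNAs, whose transcripts begin with a C followed by a run of pyrimidines that ties their translation to the kinase mTORC1.

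Because such a tract sits at the transcription start, the 30 bases around the RefSeq start (GRCh38.p14) are shown for the 9 member genes that have one, followed by EIF4A3, the gene that fell most, and EIF4EBP2, the gene that rose. Capitals mark the uninterrupted pyrimidines that include the first transcribed base, which is the base after position 15 of each sequence, 5′ to 3′ on the gene's strand. A tract was counted where that first base was C and at least the next 4 bases were C or T.
EIF3D: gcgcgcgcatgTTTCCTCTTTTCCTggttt
EIF2A: tcacccgagcggTTTCTCTTTCCgggacaa
EIF3M: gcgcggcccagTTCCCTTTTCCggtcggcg
EIF4B: ttgcctcatccgggTCTTTTgcgttctctt
EIF3K: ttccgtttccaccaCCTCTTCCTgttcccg
EIF2D: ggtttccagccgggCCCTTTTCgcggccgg
EIF3F: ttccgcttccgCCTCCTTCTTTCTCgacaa
EIF2S3: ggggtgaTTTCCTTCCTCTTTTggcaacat
EIF4A2: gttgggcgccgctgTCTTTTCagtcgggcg
EIF4A3: gttctcggcagcggcacagcgaggtcggca
EIF4EBP2: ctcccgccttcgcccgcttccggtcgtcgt

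In GRCh38.p14 these windows are chr22:36529152-36529181 (minus strand) for EIF3D, chr3:150546772-150546801 (plus) for EIF2A, chr11:32583816-32583845 (plus) for EIF3M and chr12:53006441-53006470 (plus) for EIF4B. Those of EIF3K, EIF2D and EIF3F are chr19:38619173-38619202 (plus), chr1:206612451-206612480 (minus) and chr11:7987322-7987351 (plus). Those of EIF2S3, EIF4A2, EIF4A3 and EIF4EBP2 are chrX:24054941-24054970 (plus), chr3:186783562-186783591 (plus), chr17:80147114-80147143 (minus) and chr10:70404130-70404159 (plus). RefSeq promoters matched 39 of the 49 rows, and no match was made for EIF2S2, EIF3A, EIF3E, EIF3G, EIF3H, EIF3L, EIF4EBP1, EIF2S2P4, EIF3FP3 and EIF3J-AS1.

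YEATS2 itself was counted at 4482 and 4104 scaled reads under shNT and at 665 and 673 under shYEATS2, a log2 fold change of -2.68 (SE 0.10, FDR 0.000583, edgeR quasi-likelihood test). Of the markers chosen to describe the line, the keratins KRT8, KRT18 and KRT7 and the mesenchymal markers CDH2 and VIM were in the table. The epithelial markers EPCAM and CDH1 were not, and VIM had the highest shNT mean, 112887 scaled reads against 10439 for KRT8. These rows therefore do not mark the line as plainly epithelial. None of the 8 leukocyte, endothelial and fibroblast markers was in the table. KRT7 was called higher, with 90.4 and 60.8 scaled reads under shNT and 236 and 207 under shYEATS2, the lowest counts of these markers. The other markers were not called, KRT18 at a log2 fold change of -0.81 (20088 and 18402 against 13903 and 7983 scaled reads, FDR 0.0283, edgeR quasi-likelihood test), VIM at -0.37, KRT8 at 0.31 and CDH2 at 0.36. The part of these differences in any result below was not tested.

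Of the 49 initiation factor genes, 8 fell and 1 rose after YEATS2 knockdown, and 40 did not pass the threshold. The genes that fell were EIF4A3, EIF3D, EIF2A, EIF3G, EIF3E, EIF2B4, EIF3M and EIF4H, which differed by -51.2% to -28.0%, and the gene that rose was EIF4EBP2, by 44.1%. The 8 lower genes compare with 12.5% of all tested genes called lower, the 1 higher gene with 12.9% called higher, and the 9 together with 25.3% called in either direction. At an FDR under 0.05, 19 of the 49 were lower and 6 higher, against 23.8% and 24.4% of all genes. For 33 of the 49, both shYEATS2 libraries lay below both shNT libraries, for 8 they lay above, and for 8 the groups overlapped. Among all genes, 39.8% were lower and 39.7% higher in this way.

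The median log2 fold change of the 49 rows was -0.23, against -0.0019 for all genes, and 37 of the 49 values were below 0, against 6350 of 12676. Initiation factor mRNAs are abundant, and 43 of the rows had a mean of at least 1000 scaled reads. These 43 had a median of -0.26, with 8 lower and 1 higher, whereas all 6996 genes at that level had a median of -0.04, with 15.7% lower and 13.3% higher. Together the 49 rows took 14489 and 14198 reads per 1000000 under shNT and 13396 and 12852 under shYEATS2. Their summed scaled counts were 554569 and 534740 against 469456 and 447906, a difference of -15.8%.

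The scaling and single libraries moved these counts. With total counts in place of TMM, 4 initiation factor genes were lower (EIF2A, EIF3D, EIF3G and EIF4A3) and 5 higher (EIF3J-AS1, EIF4A2, EIF4E2, EIF4EBP2 and EIF5A2), the median over all genes moved to 0.12, and 67.0% of all calls were higher, against 50.8% with TMM. The median of the initiation factor rows lay 0.23 below that of all genes under either scaling. A change of scaling shifts all genes nearly alike, so this gap could hardly change and its constancy is no test. Leaving out shNT replicate 1 left 2 lower and 1 higher gene, leaving out shNT replicate 2 left 2 and 0, leaving out shYEATS2 replicate 1 gave 11 and 1, and leaving out shYEATS2 replicate 2 gave 6 and 0. EIF3D and EIF4A3 were called lower in each of these 4 fits, in which a lone library was assumed to vary like those of the other group, and EIF4EBP2 was called in none of them. The other genes that fell lost their calls when either shNT library was left out, EIF3E also without shYEATS2 replicate 1, and EIF3G, EIF2B4, EIF3M and EIF4H also without shYEATS2 replicate 2.

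**Figure D1:**
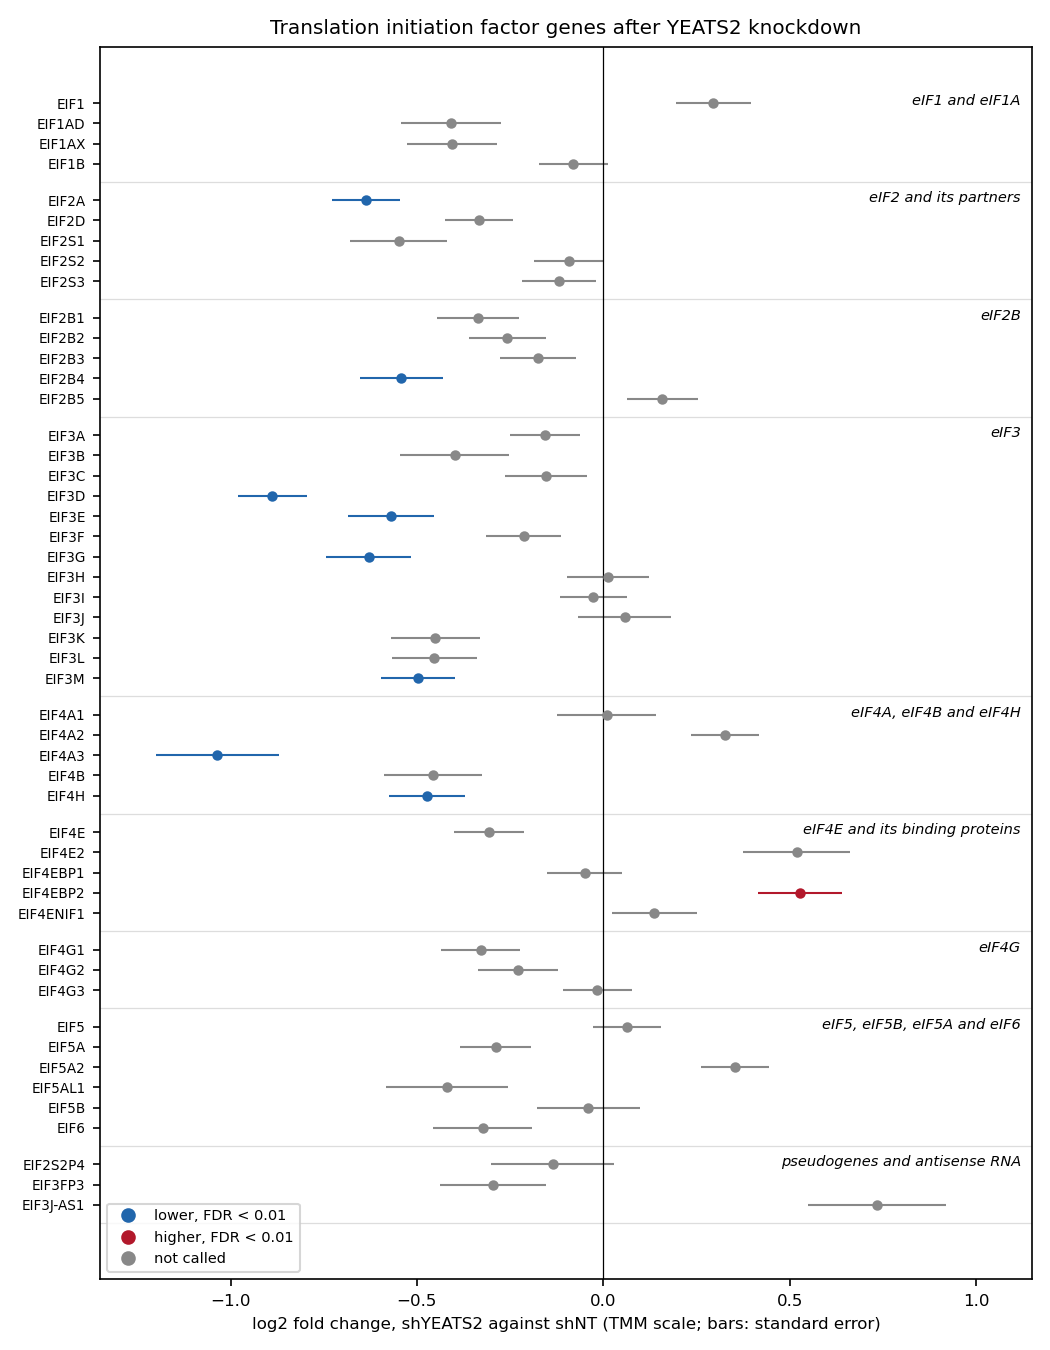
Log2 fold change of each of the 49 rows in shYEATS2 against shNT libraries (x axis, TMM scale), with bars for the standard error from the edgeR fit and genes grouped by factor. Blue points mark the 8 genes lower and the red point the 1 gene higher at an FDR under 0.01, and 37 of the 49 points lie left of 0.

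The eIF3 complex held 4 of the 8 genes that fell. It also made up 13 of the 49 rows. Of these 13 measured subunit genes, 4 were lower and 0 higher, against 12.5% and 12.9% of all genes. Their median log2 fold change was -0.40, and the summed scaled counts were 179192 and 176591 under shNT and 143472 and 140687 under shYEATS2, a difference of -20.1%. The 9 other subunits were not called and ranged from -0.45 for EIF3L and EIF3K to 0.06 for EIF3J.

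EIF3D (ENSG00000100353, chr22:36906902-36925231 in GRCh37, minus strand) encodes a subunit at the edge of the complex that can itself bind the cap of some mRNAs. Its scaled counts were 10196 and 10459 under shNT and 5732 and 5433 under shYEATS2. The replicates lay close together and the groups far apart, and the log2 fold change was -0.89 (SE 0.09, FDR 0.00122, edgeR quasi-likelihood test). EIF3G (ENSG00000130811, chr19:10225690-10230594), which encodes an RNA-binding subunit, had 11292 and 11308 against 7978 and 6634, a log2 fold change of -0.63 (SE 0.11, FDR 0.00560). The shNT libraries were nearly equal for EIF3G and both shYEATS2 libraries were lower, the second more so.

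The other called subunits belong to the octamer of PCI and MPN domain proteins that forms the structural core of eIF3. EIF3E (ENSG00000104408, chromosome 8, minus strand) had 23204 and 25914 scaled reads under shNT and 15268 and 17838 under shYEATS2, a log2 fold change of -0.57 (SE 0.12, FDR 0.00823). EIF3M (ENSG00000149100, chr11:32605344-32627810) had 8441 and 7845 against 6032 and 5500, a log2 fold change of -0.50 (SE 0.10, FDR 0.00764). For both genes the groups did not overlap. Of the 8 genes of this octamer, 2 were lower and 0 higher, against 12.5% and 12.9% of all genes, and their median was -0.33. Its EIF3C counts were low, with 870 and 929 scaled reads against 837 and 781 (log2 fold change -0.15, FDR 0.279), and EIF3C has a near-identical copy, EIF3CL, between which reads cannot be assigned by HTSeq at its default setting, so the value is uncertain. EIF3L is also uncertain, because 41.1% of its annotated exon bases overlap another gene on the same strand. Such overlaps were measured in a GENCODE annotation of GRCh37, and may differ in the unnamed annotation from which the reads were counted.

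A ratio of reads within a library does not depend on how the libraries are scaled, so the other subunits were set against EIF3A, the largest subunit and the scaffold of the octamer, whose own log2 fold change was -0.16 (FDR 0.202). EIF3D gave 0.477 and 0.516 reads per EIF3A read under shNT and 0.299 and 0.299 under shYEATS2, 0.602 times the shNT mean. Relative to EIF3A, 7 of the 12 other subunits were lower in both shYEATS2 libraries than in both shNT libraries (EIF3D, EIF3G, EIF3E, EIF3M, EIF3K, EIF3L and EIF3B, 0.602 to 0.845 times). EIF3I and EIF3J, a WD-repeat subunit and a loosely bound one, were higher in this ratio, at 1.10 and 1.16 times, and EIF3C, EIF3F and EIF3H overlapped between the groups. By scaled counts, 39.8% of all genes were lower and 39.7% higher in this way. No such share was computed for ratios to EIF3A. These ratios show unequal change among the subunit mRNAs and not which of them was constant. No p is given for them, since with 2 libraries against 2 a two-sided exact permutation test cannot go below 0.333.

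**Figure D2:**
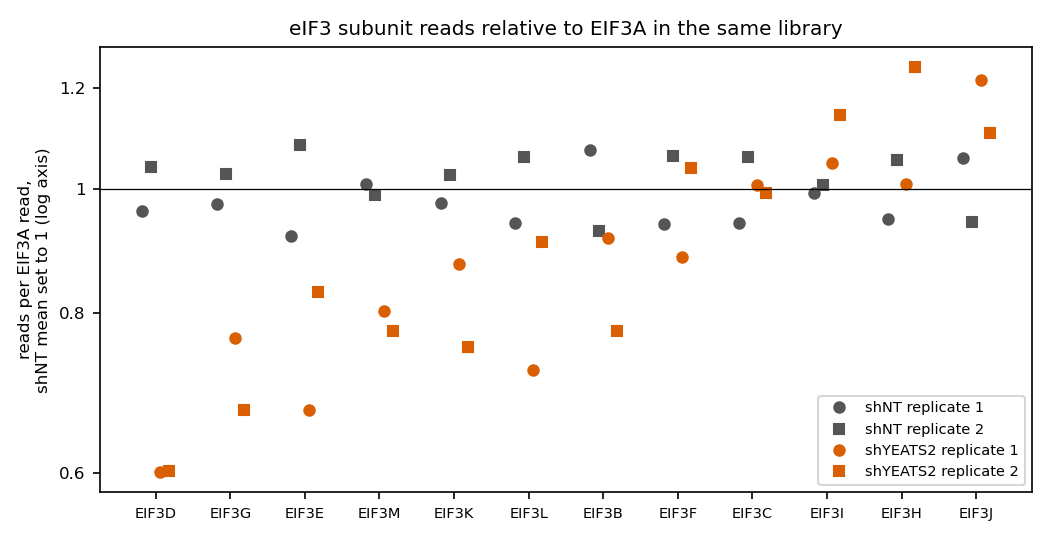
Reads of 12 eIF3 subunit genes per read of EIF3A in the same library (y axis, log scale, shNT mean set to 1), with grey points for the 2 shNT and orange points for the 2 shYEATS2 libraries. EIF3D lies lowest, at 0.602 times the shNT mean, and 7 subunits have both orange points below both grey points.

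The group of eIF4A helicases and their cofactors contained the gene that fell most. Of the 5 genes for eIF4A, eIF4B and eIF4H, 2 were lower and 0 higher, against 12.5% and 12.9% of all genes. Their median was -0.46, and the group's summed scaled counts differed by -23.1%. The largest parts of that sum were the cofactors EIF4B and EIF4H, with shNT means of 28727 and 28014 scaled reads. EIF4A1 added few reads to it. EIF4A3 (ENSG00000141543, chr17:78108168-78120950, minus strand) is named as an eIF4A but is known as the RNA-anchoring helicase of the exon junction complex, which marks spliced mRNAs. Its scaled counts were 5667 and 4845 under shNT and 2969 and 2161 under shYEATS2, a log2 fold change of -1.04 (SE 0.17, FDR 0.00377, edgeR quasi-likelihood test). Both shYEATS2 libraries were well below the lower shNT library, although the replicates differed more than those of EIF3D. EIF4H (ENSG00000106682, chr7:73588561-73611452), a cofactor that stimulates eIF4A, had 29094 and 26934 against 21196 and 19147, a log2 fold change of -0.47 (SE 0.10, FDR 0.00994), just inside the threshold.

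The paralogues of EIF4A3, EIF4A1 and EIF4A2, act in initiation itself. EIF4A2 had 7878 and 8244 scaled reads under shNT and 9993 and 10217 under shYEATS2, a log2 fold change of 0.33 with an FDR of 0.0241 (edgeR quasi-likelihood test), which did not pass. Reads of EIF4A2 per read of EIF4A3 were 1.39 and 1.70 under shNT and 3.37 and 4.73 under shYEATS2, 2.62 times the shNT mean. Both genes already separated the groups by scaled counts, in opposite directions, so separation of this ratio adds no support. EIF4A1, usually the main eIF4A of dividing cells, had only 365 and 374 scaled reads against 354 and 390 (log2 fold change 0.0095, FDR 0.959). That count is not a usable level, since 47.4% of the annotated exon bases of EIF4A1 overlap same-strand genes, including the readthrough gene SENP3-EIF4A1 and 2 small nucleolar RNA genes, and 13 pseudogenes of it are annotated. Small nucleolar RNA genes also overlap 10.4% of the exon bases of EIF4A2 on the same strand. EIF4B, another cofactor of eIF4A, was not called, at -0.46 (FDR 0.0277).

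**Figure D3:**
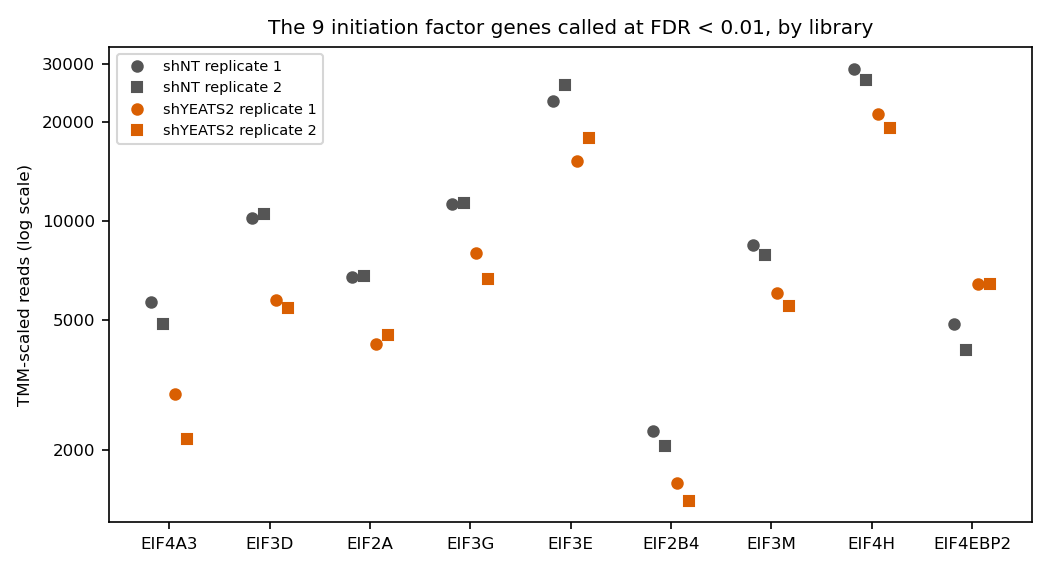
TMM-scaled read counts (y axis, log scale) of the 9 initiation factor genes called at an FDR under 0.01, with grey points for the shNT and orange points for the shYEATS2 libraries. The shYEATS2 points lie below both shNT points for 8 genes and above them for EIF4EBP2.

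The gene that rose belongs to the cap-binding group. Of the 5 measured genes for eIF4E and its binding proteins, 0 were lower and 1 higher, against 12.5% and 12.9% of all genes. Their median was 0.14 on the log2 scale, and their summed scaled counts differed by 15.6%. EIF4EBP2 (ENSG00000148730, chr10:72163901-72188374) encodes a repressor that holds eIF4E away from eIF4G until mTORC1 phosphorylates it. Its scaled counts were 4858 and 4055 under shNT and 6437 and 6405 under shYEATS2, a log2 fold change of 0.53 (SE 0.11, FDR 0.00983, edgeR quasi-likelihood test), close to the threshold. EIF4EBP1, its better studied paralogue, had 3478 and 3905 against 3528 and 3603 (log2 fold change -0.05, FDR 0.698), with overlapping groups and a sign that turned to 0.07 with total counts.

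EIF4E, the cap-binding protein, had 3348 and 3174 scaled reads under shNT and 2678 and 2595 under shYEATS2, a log2 fold change of -0.31 that was not called (FDR 0.0332). EIF4E2, which encodes the 4EHP protein, binds the cap without recruiting eIF4G and acts in repression, had 2629 and 1980 against 3289 and 3314, a log2 fold change of 0.52 that was not called either (FDR 0.0234, edgeR quasi-likelihood test). The shNT replicates of EIF4E2 differed from each other more than the shYEATS2 replicates did. EIF4EBP2, EIF4E2 and EIF4E already separated the groups by scaled counts, so separation of their read ratios adds no support. By scaled counts, 39.8% of all genes lay lower and 39.7% higher in this way. Read ratios within each library need no scaling. EIF4EBP2 per EIF4E was 1.45 and 1.28 under shNT and 2.40 and 2.47 under shYEATS2, a ratio of 1.79 between the means. EIF4E2 per EIF4E was 0.785 and 0.624 against 1.23 and 1.28, a ratio of 1.78, so that EIF4E had more reads than EIF4E2 in the shNT libraries and fewer in the shYEATS2 libraries. EIF4EBP1 per EIF4E was 1.04 and 1.23 against 1.32 and 1.39, a ratio of 1.19. Such ratios are of reads and not of molecules, because the transcripts differ in length. Per kilobase of canonical transcript and 1000000 reads, the means were 65.4 for EIF4E2 against 36.9 for EIF4E under shNT. Under shYEATS2 they were 93.7 against 29.8. Which gene is higher depends on the length used, because reads were counted per gene. The canonical transcripts have 967 bases for EIF4E2 and 2427 for EIF4E, and all annotated exons 11481 and 4971.

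The 3 genes for eIF4G, the scaffold that joins the cap to the ribosome, were not called. EIF4G1 had 43404 and 39597 scaled reads under shNT and 34943 and 31124 under shYEATS2 (log2 fold change -0.33, FDR 0.0392, edgeR quasi-likelihood test). EIF4G2, a paralogue that lacks the eIF4E-binding part, had 48233 and 44362 against 42008 and 37012 (log2 fold change -0.23, FDR 0.116). For both, the groups did not overlap. EIF4G3 had 7135 and 6628 against 6691 and 6920 (log2 fold change -0.02, FDR 0.899), with overlapping groups and a value above 0 under total-count and upper-quartile scaling. The reads of EIF4G3 per read of EIF4G1 were 1.25 times as many in the shYEATS2 as in the shNT libraries.

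**Figure D4:**
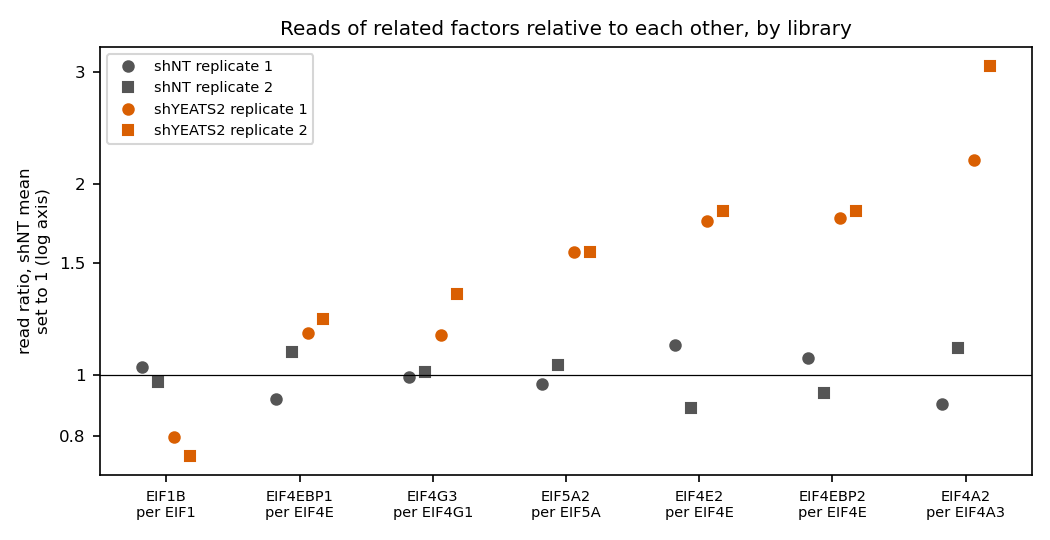
Reads of one factor gene per read of a related one in the same library (y axis, log scale, shNT mean set to 1), with grey points for the 2 shNT and orange points for the 2 shYEATS2 libraries. The largest separation is that of EIF4A2 per EIF4A3 at 2.62 times, and EIF1B per EIF1 is the ratio that is lower, at 0.771 times. Except for the ratios of EIF4EBP1 and EIF4G3, both genes of a ratio already separated in opposite directions by scaled counts. Separation of those ratios adds no support.

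Among the factors that handle the initiator tRNA, 1 of 5 genes for eIF2 and its partners and 1 of 5 eIF2B genes fell, and 0 rose in either group. Over all genes, 12.5% were called lower and 12.9% higher. EIF2A (ENSG00000144895, chr3:150264465-150303803) is not a subunit of eIF2 but encodes a single-chain protein that can bring methionyl-tRNA to the ribosome on some mRNAs. Its scaled counts were 6736 and 6792 under shNT and 4216 and 4479 under shYEATS2, a log2 fold change of -0.64 (SE 0.09, FDR 0.00260, edgeR quasi-likelihood test), with close replicates. EIF2B4 (ENSG00000115211, chr2:27587219-27593205, minus strand) encodes the delta subunit of eIF2B, the exchange factor that reloads eIF2 with GTP. It had 2297 and 2062 scaled reads against 1593 and 1403, a log2 fold change of -0.54 (SE 0.11, FDR 0.00837).

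The other eIF2B subunits ranged from -0.34 for EIF2B1 (FDR 0.0415) to 0.16 for EIF2B5, the catalytic subunit, and none was called. Of the subunits of eIF2 itself, EIF2S1, the alpha subunit that the eIF2 kinases phosphorylate, had 12902 and 11230 scaled reads under shNT and 9080 and 7417 under shYEATS2. Its log2 fold change of -0.55 was as large as that of EIF2B4, but the replicates were further apart and the gene was not called (FDR 0.0143, edgeR quasi-likelihood test). The beta and gamma subunits, EIF2S2 and EIF2S3, were at -0.09 and -0.12, and both values were above 0 with total counts.

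None of the 4 measured genes of the eIF1 and eIF1A group was called. The eIF1 and eIF1A proteins keep the scanning ribosome open until the start codon is found. EIF1AD, counted in this group, is named for an eIF1A domain and is not eIF1A itself. It was at -0.41 (FDR 0.0427, edgeR quasi-likelihood test). EIF1 had 11263 and 11780 scaled reads under shNT and 13317 and 14965 under shYEATS2, a log2 fold change of 0.30 (FDR 0.0484, edgeR quasi-likelihood test). EIF1AX had 13840 and 12473 against 10856 and 9006, a log2 fold change of -0.41 (FDR 0.0315). Both shYEATS2 libraries lay above both shNT libraries for EIF1 and below them for EIF1AX, although neither gene passed an FDR of 0.01. EIF1B, a paralogue of EIF1, had 1647 and 1632 against 1512 and 1588 (log2 fold change -0.08, FDR 0.493, above 0 with total counts), and the reads of EIF1B per read of EIF1 were 0.146 and 0.139 under shNT and 0.114 and 0.106 under shYEATS2. By scaled counts EIF1 already lay higher and EIF1B lower in both shYEATS2 libraries, so separation of this ratio adds no support.

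The factors of subunit joining and the steps around it gave 0 lower and 0 higher genes of 6. EIF5A encodes a hypusine-containing protein, now known mainly for its part in elongation, and had 44226 and 41417 scaled reads under shNT and 36004 and 34085 under shYEATS2 (log2 fold change -0.29, FDR 0.0415, edgeR quasi-likelihood test). Its less abundant paralogue EIF5A2 had 1761 and 1768 against 2315 and 2195 (log2 fold change 0.35, FDR 0.0190). The groups did not overlap for either gene, and EIF5A2 per EIF5A was 0.0398 and 0.0427 under shNT and 0.0643 and 0.0644 under shYEATS2, a ratio of 1.56. Since both genes already separated the groups in opposite directions, this ratio had to separate them too and adds no support. EIF5AL1, a gene that resembles a processed copy of EIF5A and can share its reads, had 221 and 222 against 163 and 168 (log2 fold change -0.42, FDR 0.0710). EIF5, the GTPase-activating protein of eIF2, and EIF5B, which joins the large subunit, were at 0.06 and -0.04, the second above 0 with total counts, and EIF6, which keeps the large subunit from joining too early, was at -0.32 (FDR 0.0823).

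The row with the largest value above 0 was the non-coding EIF3J-AS1, with 336 and 353 scaled reads under shNT and 474 and 670 under shYEATS2, a log2 fold change of 0.73 that was not called (FDR 0.0172, edgeR quasi-likelihood test). EIF3J, the coding gene next to it, was at 0.06 (FDR 0.719), and the annotated exons of the pair do not overlap. However, 8.17% of the exon bases of EIF3J-AS1 overlap CTDSPL2 on the opposite strand, and reads from opposite strands cannot be told apart in these libraries. This limit also holds for other rows, where the overlap reached 23.6% for EIF2B2, 15.6% for EIF2B1 and 12.4% for EIF4B. The pseudogene rows were at -0.14 for EIF2S2P4 and -0.30 for EIF3FP3, with 183 to 316 scaled reads per library, and may hold reads of their parent genes.

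In reads per kilobase of canonical transcript and per 1000000 reads, the level of the 49 rows spanned from 1.36 for EIF5AL1 to 846 for EIF5A, as means of the 4 libraries. Reads were counted per gene and not per transcript, so these levels and their order depend on the length used. EIF3K (582), EIF6 (346), EIF4G2 (310) and EIF3E (279) followed EIF5A on this scale. For EIF6, 17.3% of the annotated exon bases overlap another gene on the same strand. Among the genes that fell, the level in the shNT libraries ran from 36.4 for EIF2B4 to 333 for EIF3E, so they were not confined to rare transcripts. On the same scale EIF4EBP2 averaged 16.3 in the shNT and 23.5 in the shYEATS2 libraries, and EIF4E 36.9 and 29.8.

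The pyrimidine tract at the start was found in 9 of the 39 member promoters (23.1%), against 5.47% of the promoters of all tested genes and 4.04% of all 27305 RefSeq promoters. Of the 9 genes shown above, EIF3D, EIF2A and EIF3M were lower, 0 were higher and 8 had a log2 fold change below 0, with a median of -0.45. The exception was EIF4A2, at 0.33. Of the 30 member genes without the tract, 3 were lower and 1 higher, 21 were below 0 and the median was -0.20. The range of the genes with a tract, -0.89 to 0.33, lay within that of the genes without one, -1.04 to 0.53.

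Over all tested genes the tract went with a smaller difference. With the tract, 17.9% of 498 genes were lower and the median was -0.05, and without it 12.8% of 8590 genes were lower and the median was -0.01. Leaving out the ribosomal protein genes, which mostly carry the tract, brought this to 14.1% of 455 genes and 12.6% of 8566, with medians of 0.0037 and -0.01, so that the medians changed order. These shares describe letters at an annotated start, and the start used in H1299 cells was not measured here. Of the initiation factor mRNAs counted among the TOP mRNAs (EIF3A, EIF3E, EIF3F, EIF3H and EIF4B), 1 of 5 was lower, EIF3E, and the median was -0.21.

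**Figure D5:**
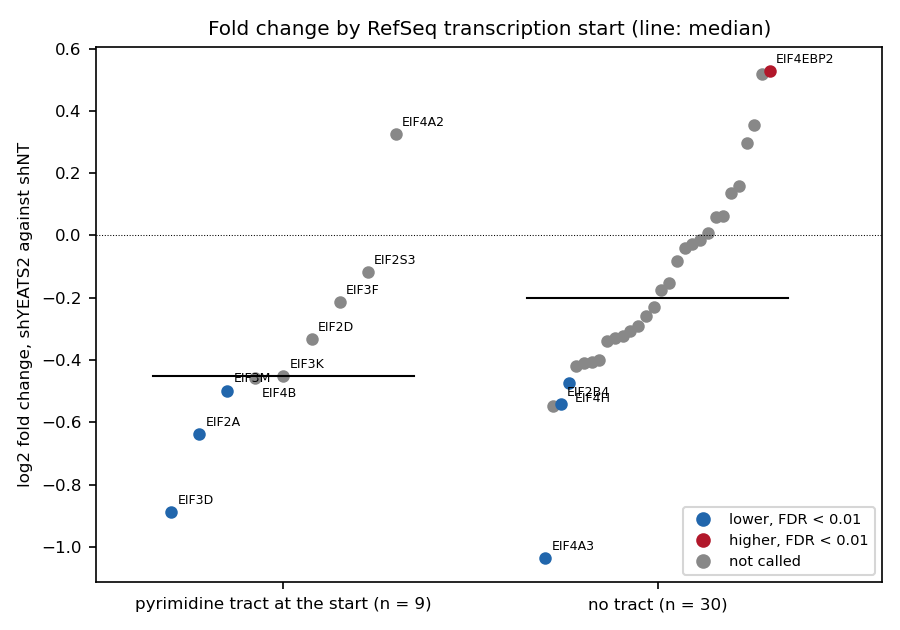
Log2 fold change in shYEATS2 against shNT libraries (y axis) of the 39 initiation factor genes with a RefSeq start, split by a pyrimidine tract at the first transcribed base, with a horizontal line at each median. The medians are -0.45 for the 9 genes with the tract and -0.20 for the 30 without it, and the ranges overlap.

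The E-box letters CACGTG, the core sequence bound by MYC and related factors, read the same on both strands and were searched in the 250 bases before and 50 after each start. They were present in 10 of the 39 member promoters (25.6%), against 10.5% of the promoters of tested genes and 7.43% of all promoters. Among the 6 genes that fell and had a promoter sequence, EIF4A3 and EIF4H held the letters. Their presence is no measure of binding.

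Genes that regulate initiation and genes of later steps were counted from lists of their own. Of 49 measured genes in the lists of regulators and later steps, 5 were lower and 7 higher, with a median of -0.05, against 12.5% and 12.9% of all genes. The largest change was in MKNK2, the gene for a kinase that phosphorylates eIF4E, which had 3777 and 5287 scaled reads under shNT and 15652 and 25685 under shYEATS2, a log2 fold change of 2.19 (SE 0.26, FDR 0.00160, edgeR quasi-likelihood test). The replicates differed widely in both groups, but the groups did not overlap.

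Of the 14 cap-side cofactor genes, MKNK2 and 3 others rose and 1 fell. PDCD4, which encodes an inhibitor of eIF4A, rose from 1417 and 1768 to 2523 and 3154 scaled reads, a log2 fold change of 0.83. PAIP2 and PAIP2B encode proteins that pull the poly(A)-binding protein off the mRNA. PAIP2 rose by 0.57 on the log2 scale, from 3020 and 2839 to 4097 and 4623 scaled reads, and PAIP2B by 1.18, from low counts of 80.7 and 77.0 to 150 and 207. PABPC4, a cytoplasmic poly(A)-binding protein, fell by 0.55, from 17019 and 17854 to 12429 and 11383.

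Of the 11 mTORC1 and S6 kinase genes, 0 fell and 2 rose, and the list's median was 0.39. The list mixes subunits, activators and inhibitors of mTORC1, so this median has no single meaning. Of the values, 7 were above 0 and 4 below. MTOR and RPTOR, which encode subunits of mTORC1 itself, were at 0.42 and 0.39 and were not called (FDR 0.0115 and 0.0162, edgeR quasi-likelihood test). SESN2, the gene for a stress-induced inhibitor of mTORC1, rose by 1.79 on the log2 scale, from 1005 and 1852 to 4225 and 5638 scaled reads. TSC2, a brake on the mTORC1 activator Rheb, rose by 0.53, from 2604 and 2656 to 3692 and 3911. Of the 6 genes for eIF2 kinases and the subunits that direct a phosphatase to eIF2, PPP1R15A rose, from 1904 and 2113 to 3242 and 4380 scaled reads, a log2 fold change of 0.92 (SE 0.16, FDR 0.00437, edgeR quasi-likelihood test). PPP1R15A encodes GADD34, which brings protein phosphatase 1 to eIF2 alpha.

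The later steps of translation are given list by list, beside 12.5% of all genes called lower and 12.9% called higher. Of 3 reinitiation and recycling genes, MCTS1, which aids re-use of ribosomes after short reading frames, fell by 0.72 on the log2 scale, from 2011 and 2130 to 1339 and 1179 scaled reads. Of 3 termination genes, GSPT1 and GSPT2, which encode alternative forms of the GTPase eRF3, fell by 0.61 and 0.99. The scaled reads were 8106 and 7762 against 5458 and 4971 for GSPT1, and 727 and 705 against 396 and 325 for GSPT2. Of 9 elongation genes, 1 was lower and 0 higher, and that gene, EEF1E1, which fell by 0.68, from 1509 and 1354 to 985 and 803, encodes a component of the aminoacyl-tRNA synthetase complex rather than an elongation factor proper. None of the 3 mitochondrial initiation factor genes was called.

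Of the 12 called genes of these lists, MKNK2, SESN2 and GSPT2 kept their calls with each library left out in turn. Without shNT replicate 1, PAIP2, PAIP2B, PDCD4, PABPC4, TSC2, GSPT1, EEF1E1 and PPP1R15A were no longer called. Without shNT replicate 2 this held for PAIP2, PAIP2B, PABPC4, TSC2, MCTS1, GSPT1 and EEF1E1, and without shYEATS2 replicate 2 for PAIP2, PAIP2B, PDCD4, PABPC4, TSC2 and EEF1E1, while each kept its direction. With total counts, PABPC4 and EEF1E1 lost their calls at FDR values of 0.0111 and 0.0118 (edgeR quasi-likelihood test).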

How the data were processed

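RNA-seq of 4 H1299 libraries (2 shNT, 2 shYEATS2) was used, with groups and replicate numbers taken from the labels, and the 12 ChIP-seq samples were not analysed here. The authors used the RNA-Seq unified mapper with hg19, counted with HTSeq, and deposited the raw read counts per gene. The submitters' processing notes also list Bowtie2 2.1.0, TopHat2 2.0.10 and HTSeq 0.6.1p1, and the annotation is not given in the sources used here. The kit does not mark strand. The deposited table lists genes with more than 100 reads in some library (the lowest such maximum is 101) and also holds the authors' own log2 fold changes, p-values and FDR values, which were not used.

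All 12676 genes reached the minimum of 10 reads in 2 or more libraries and were tested by edgeR 4.0.16 (R 4.3.3) with TMM factors of 0.952, 0.967, 1.04 and 1.05, the quasi-likelihood test without a replicate block, and Benjamini-Hochberg adjustment over all genes. The common biological coefficient of variation was 0.107. Alternatives were DESeq2 1.42.0, exactTest, limma-trend (limma 3.58.1, prior count 2), DESeq2 size factors, total counts, upper-quartile scaling, a replicate block, a mean count minimum of 100, omission of the filter, an FDR under 0.05 and each library left out. The fit was tested on simulated data. The member genes and all gene lists were chosen with earlier results of these data known. Every member called at an FDR under 0.01 and every member of a paralogue set was given with its 4 values, as were the called genes of the pathway lists, and other members named one by one were picked after their values had been seen. Gene positions and transcript lengths come from a GENCODE annotation of GRCh37, which matched all 49 rows, and start-site sequences from RefSeq on GRCh38.p14.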

Additional observations from a re-analysis of the deposited data

How the results depend on the processing

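The 9 calls were kept by DESeq2 and exactTest, by limma-trend, with DESeq2 size factors and with a replicate block, while EIF4H was lost with upper-quartile scaling and with a mean count of at least 100. The number of initiation factor genes called lower was 13 with DESeq2, 12 with exactTest (adding EIF2S1, EIF3K, EIF3L and EIF4B), 4 with total counts, 17 with a replicate block and 19 at an FDR under 0.05, and 2 to 11 with a library left out. The number called higher was 3 with DESeq2, 4 with exactTest, 5 with total counts, 5 with a replicate block and 6 at an FDR under 0.05, and 0 to 1 with a library left out. Over all genes the replicate block gave 2715 lower and 2742 higher. The replicate numbers are not stated to mark a shared batch, and the differences between replicates 1 and 2 correlated across genes at 0.40 between the groups, with only 2 pairs. The median log2 fold change of the 49 rows was -0.11 with total counts, and -0.27 to -0.15 with a library left out.

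Signs turned only for genes that were not called. With total counts the log2 fold changes were 0.0389 for EIF1B, 0.0271 for EIF2S2, 0.0016 for EIF2S3, 0.0931 for EIF3I, 0.0690 for EIF4EBP1, 0.10 for EIF4G3 and 0.0796 for EIF5B, and with upper-quartile scaling 0.0032 for EIF4G3. With a library left out, EIF3H ranged from -0.10 to 0.12, EIF3J from -0.0581 to 0.18, EIF4A1 from -0.0619 to 0.0783, EIF4EBP1 from -0.14 to 0.0374, EIF4G3 from -0.0669 to 0.0336 and EIF5B from -0.18 to 0.10. Omitting the filter could change nothing, since every gene passed it. Of 806 values of 62 genes under the other alternatives, 682 kept their direction and side of the threshold, 50 lost a call, 55 gained one and 19 changed sign. The values at an FDR under 0.05 reuse the main fit, so they could only gain a call, as 16 did. Of the 62 genes, 40 were initiation factor genes without a call to lose, so these totals do not measure stability. EIF4EBP2 had FDR values of 0.0140 to 0.0785 with a library left out (edgeR quasi-likelihood test). The causes of these changes were not tested.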
